A study of Mus musculus with 24 samples.

Results

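The 8 mRNAs described here are Map2, Spon1, Rfx4, Trib2, Nptx1, Kif21b, Homer3 and Sema6a, a set named for neuronal and glial differentiation and taken from a count table of 55335 mouse genes. They were found in it by Ensembl identifier, through the gene names of GENCODE mouse release M21, and each matched 1 row. They had been picked with their difference between neural progenitor cells and embryonic stem cells in view, so that difference is described below without a test, and tests are given for differences between genotypes within a cell type.

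The study read small RNA libraries from mouse embryonic stem cells (mESC) and from neural progenitor cells (NPC) derived from them, to relate the CAG repeat length of the Huntington's disease gene Htt to RNA processing. Both cell types came in 6 genotypes: wild type (WT), an Htt knockout (KO), and 4 knock-in lines whose names (Q20, Q50, Q92, Q111) carry the repeat number. Each of the 12 groups had 2 libraries, and the labels do not say whether these came from separate cultures, so p-values measure the spread between libraries, which may be technical. The knock-in lines are heterozygous for the Htt allele with the numbered repeat and so keep an Htt allele without it, and there is 1 line per repeat length, so repeat length and line cannot be told apart. For Q92 the titles give 92 repeats and the culture protocol gives 89. The mESC were kept in serum and leukemia inhibitory factor on irradiated mouse fibroblasts, and the NPC were taken through N2B27 medium and then passaged on laminin with FGF and EGF.

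An mRNA is far longer than the RNAs a small RNA library is made for, so each count here is a short piece of the transcript. Genes annotated as protein-coding held 3.63% to 5.68% of the counts per mESC library and 4.08% to 6.84% per NPC library. Total counts ran from 642384 to 2360434 in mESC and from 342022 to 682113 in NPC. The 8 mRNAs together had 12 to 38 counts per mESC library and 35 to 86 per NPC library, so counting error is large throughout. Levels are CPM, counts per 1e+06, of the library total scaled by edgeR's TMM method over the 24 libraries. A count of 0 in a library allows a level of up to 1.36 to 4.23 CPM in mESC and 4.49 to 8.44 CPM in NPC, the value of 3 counts there. These limits cover counting error only.

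Neural progenitors of this kind are grown as dividing cells that can later give neurons and glia. As they leave pluripotency they switch on transcription factors, guidance molecules and cytoskeletal genes that are silent or low in stem cells. Among the 8, Rfx4 encodes a winged-helix transcription factor of the developing neural tube, and Trib2 encodes a pseudokinase that brings ubiquitin ligases to their substrates. Spon1 encodes F-spondin, a secreted matrix protein first known from the floor plate. Sema6a encodes a transmembrane semaphorin that binds plexins in axon guidance and cell migration. Nptx1 encodes a secreted neuronal pentraxin that gathers glutamate receptors at synapses, and Homer3 encodes a scaffold that binds metabotropic glutamate receptors. Map2 encodes a microtubule-associated protein of dendrites, and Kif21b encodes a kinesin motor of neurons.

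All 8 are protein-coding, and the positions here are those of GRCm38. Map2 lies on the + strand at chr1:66175273-66442583, with 16449 exonic bases, the most of the 8. Kif21b lies on the + strand of the same chromosome at chr1:136131389-136177998, with 12184 exonic bases. Spon1 (chr7:113765998-114043370, + strand) and Rfx4 (chr10:84756062-84906538, + strand) have 10382 and 4724 exonic bases. Trib2 (chr12:15791727-15816922, - strand) and Nptx1 (chr11:119538719-119547753, - strand) have 4335 and 5217. Homer3 lies on the + strand at chr8:70282827-70294361, with 3440 exonic bases, the fewest. Of these, 874 bases (25.4%) also belong to exons of Ddx49 on the other strand. The strand setting of the counting is not given in the sources used here, so reads from the 2 genes cannot be told apart in that stretch, and Homer3 is uncertain to that extent. Ddx49 itself had 31 counts over all 24 libraries. Map2 overlaps an antisense gene, Gm10558, by 124 bases, and that gene had 1 count.

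Promoters are shown for 4 of the 8, to set 3 mRNAs at or near 0 in stem cells (Map2, Rfx4 and Trib2) beside 1 that was not (Homer3). Spon1, Nptx1 and Kif21b were also near 0 there, and their promoters are not shown. Each run is taken from RefSeq (GRCm38.p6), reads 5' to 3' on the strand of its gene and holds the bases upstream of the gene's start within a window of 250 bases. Capitals mark CG, the dinucleotide that can carry DNA methylation. The stretches are chr1:66175079-66175272 (+ strand) for Map2, chr10:84755798-84756047 (+ strand) for Rfx4, chr12:15816923-15817035 (- strand) for Trib2 and chr8:70282749-70282826 (+ strand) for Homer3.
Map2: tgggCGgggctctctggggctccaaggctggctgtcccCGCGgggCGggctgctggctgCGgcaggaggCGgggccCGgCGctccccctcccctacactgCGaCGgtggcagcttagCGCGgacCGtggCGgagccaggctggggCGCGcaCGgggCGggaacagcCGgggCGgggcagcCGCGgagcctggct
Rfx4: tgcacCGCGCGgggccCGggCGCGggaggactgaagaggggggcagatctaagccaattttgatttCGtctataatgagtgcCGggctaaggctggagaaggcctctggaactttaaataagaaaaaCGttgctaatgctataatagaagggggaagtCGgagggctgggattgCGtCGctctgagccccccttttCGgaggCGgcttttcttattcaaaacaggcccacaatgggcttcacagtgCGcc
Trib2: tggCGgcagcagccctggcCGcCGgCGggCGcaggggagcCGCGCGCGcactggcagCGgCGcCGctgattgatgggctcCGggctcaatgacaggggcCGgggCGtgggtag
Homer3: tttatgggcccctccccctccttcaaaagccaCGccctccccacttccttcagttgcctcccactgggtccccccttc
The printed stretches hold 22 CG in 194 bases for Map2, 15 in 250 for Rfx4, 15 in 113 for Trib2 and 1 in 78 for Homer3. Counted in windows of 250 bases, the Map2 and Trib2 windows each hold 34 CG, more than 96.5% of the 32851 mouse promoter windows, whose median is 6. The Rfx4 window holds 15 and the Homer3 window 11, more than 72.7% and 64.4% of promoter windows. A second start of Rfx4 has a window with 2 CG. A short RFX binding motif, GTTGCC on either strand, was present in 10.4% of all windows, was found in the Homer3 window, and was not found in those of Map2, Trib2 or either Rfx4 start. These matches describe the letters only.

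For Map2, Kif21b, Trib2 and Nptx1, every NPC library lay above every mESC library. For Nptx1 that order rests on 1 count in Q20 NPC replicate 1 (1.73 CPM) and 1 in KO mESC replicate 2 (1.04 CPM). For Trib2 it rests on 2 counts in Q20 NPC replicate 1 (3.47 CPM) and 1 in Q92 mESC replicate 2 (1.28 CPM). Both gaps are within counting error. Over the 12 NPC libraries Map2 averaged 24.8 ± 10.7 CPM (SD, n = 12), against 0.225 ± 0.473 CPM in mESC, where 9 of 12 libraries had no count and the total was 4. Kif21b averaged 22.6 ± 16.2 CPM in NPC and 0.466 ± 0.570 CPM in mESC, with 9 mESC counts in all. Both proteins act on microtubules, and both mRNAs were close to absent in mESC at this depth. Trib2 averaged 13.0 ± 7.29 CPM in NPC and 0.264 ± 0.490 CPM in mESC, where it had 4 counts. Nptx1 averaged 11.4 ± 7.54 CPM in NPC and 0.235 ± 0.367 CPM in mESC, where it also had 4 counts. As shares of all scaled reads, the pooled NPC level was 107.4 times the mESC level for Map2, 41.4 times for Kif21b and 45.5 times for Nptx1.

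Rfx4 and Spon1 were the sparsest in stem cells, with 1 count each over the 12 mESC libraries. Rfx4 averaged 7.30 ± 4.99 CPM in NPC and Spon1 averaged 6.54 ± 4.28 CPM. The pooled ratio of NPC to mESC was 119.6 for both, with a 95% counting interval of 20.4 to 4831, which rests on that single mESC count. Rfx4 had no count in Q20 NPC replicate 1, and Spon1 had none in either Q111 NPC library, so their NPC and mESC libraries overlapped. Without that Q20 library, Rfx4 was also higher in every NPC library than in every mESC library. That order rests on 1 count against 1, at 1.57 CPM in Q20 NPC replicate 2 and 1.41 CPM in Q50 mESC replicate 2.

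Homer3 and Sema6a did not follow the others. Homer3 averaged 12.9 ± 10.9 CPM in NPC and 13.0 ± 8.97 CPM in mESC, a ratio of means of 0.997, and the 2 cell types overlapped, at 0 to 39.0 CPM in NPC and 3.17 to 36.6 CPM in mESC. It supplied 81.4% of the counts of the 8 mRNAs in mESC. Sema6a (GRCm38 chr18:47235598-47368870, - strand, 8778 exonic bases) averaged 7.50 ± 4.55 CPM in NPC and 1.07 ± 1.87 CPM in mESC, and the highest mESC library, Q20 replicate 2 at 5.92 CPM, exceeded several NPC libraries. Of the 19 Sema6a counts in mESC, 14 came from the Q20 line, 4 from Q50 and 1 from the other 4 genotypes. Q20 mESC thus had 5 and 9 counts, or 3.59 and 5.92 CPM, where WT, KO and Q92 mESC had none.

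The separation of all NPC from all mESC libraries held for 4 of the 8 mRNAs, though for Nptx1 and Trib2 within counting error. Such a separation was seen in 7.08% of the 904 genes that passed the filter on low counts over the 24 libraries. Among the 3281 protein-coding genes with at least as many counts as the sparsest of the 8, the share was 1.8%. The set was chosen on this contrast, so the comparison is a description. Summed over the 8, NPC libraries lay between 56.4 and 137.9 CPM (median 109.3) and mESC libraries between 5.43 and 39.5 CPM (median 13.6). Without Homer3 the mESC range was 0.55 to 6.58 CPM and the NPC range 53.3 to 134.1 CPM. In such bulk libraries, fewer cells of a type and less RNA per cell cannot be told apart.

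**Figure D1:**
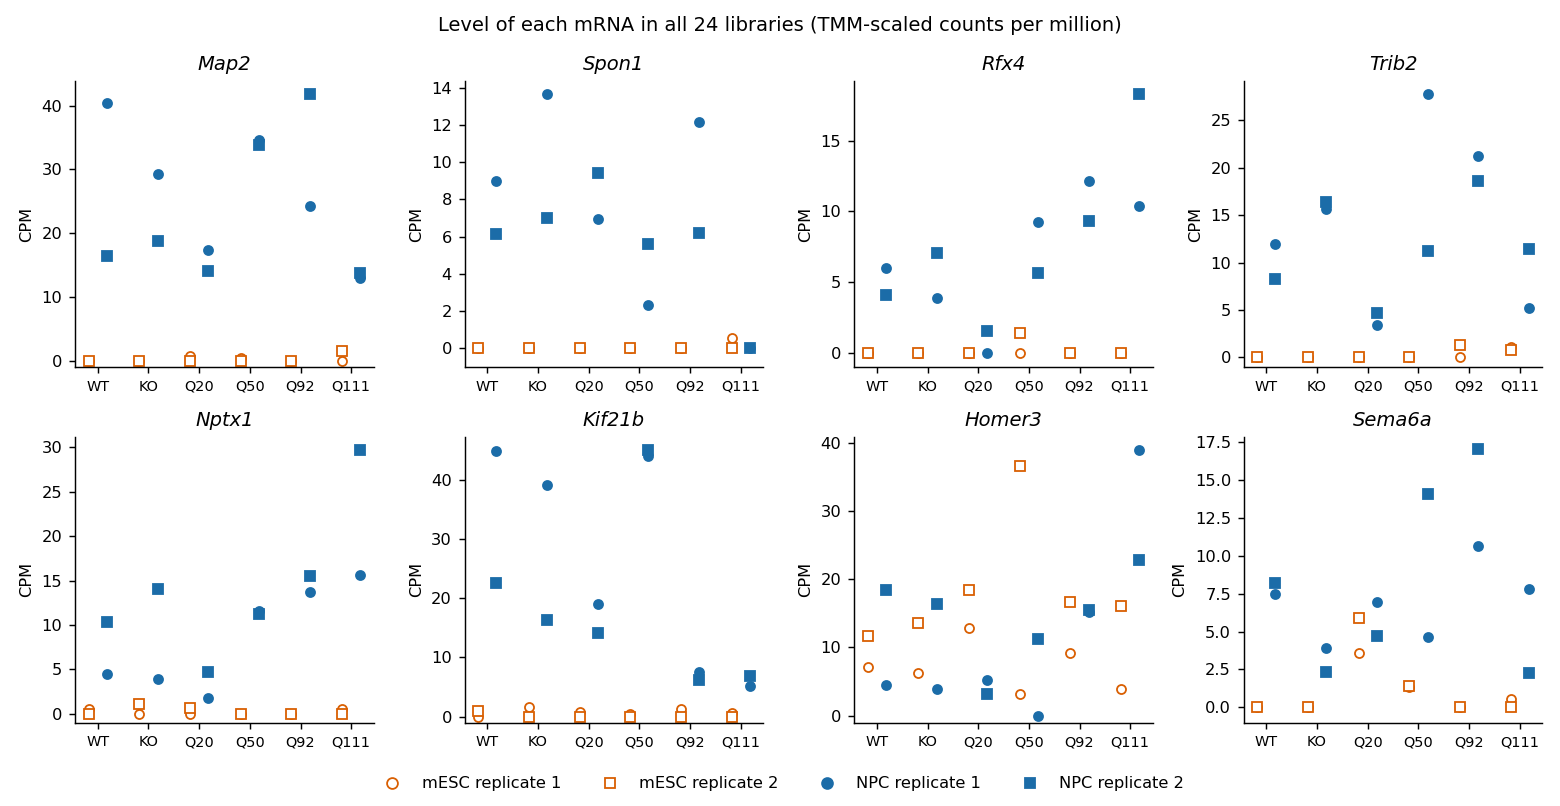
Level of each mRNA (vertical axis, TMM-scaled CPM) in each of the 24 libraries, by genotype (horizontal axis), with mESC as open orange and NPC as filled blue points, circles for replicate 1 and squares for replicate 2. NPC points lie above mESC points throughout for Map2, Trib2, Nptx1 and Kif21b, and the 2 cell types overlap for Homer3.

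Divided by exonic length, the order in NPC changed. Homer3 then had the highest level at 3.76 ± 3.17 CPM per kilobase of exon (SD, n = 12), followed by Trib2 at 3.00 ± 1.68 and Nptx1 at 2.18 ± 1.45. Kif21b stood at 1.85 ± 1.33, Rfx4 at 1.55 ± 1.06 and Map2 at 1.51 ± 0.653 CPM per kilobase. Sema6a (0.854 ± 0.518) and Spon1 (0.630 ± 0.412) had the lowest. Neighbours in this order differed by less than the SD of either, except Map2 and Sema6a, whose difference was about the SD of Map2 and above that of Sema6a.

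The label of the set was checked against lists of cell type markers. The neuronal list of 30 genes summed to 36.6 to 91.9 CPM in NPC and 10.4 to 25.1 CPM in mESC, but 16 of its genes had at most 3 counts over the 12 NPC libraries. The genes that define neurons were at or near 0 in NPC: Rbfox3, a nuclear splicing factor of mature neurons, had 0 counts, Tubb3 and Snap25 had 1 each, Syn1 had 3 and Dcx had 10. The most counts fell on Ank2, an ankyrin that links membranes to spectrin (125 NPC counts). The astrocyte list of 19 genes summed to 98.7 to 246.5 CPM in NPC against 12.5 to 28.7 CPM in mESC, with Gfap at 0 counts in NPC and the most counts on Slc1a3 (415), a glutamate transporter that progenitors also carry. The oligodendrocyte lineage list of 14 genes summed to 74.5 to 157 CPM in NPC against 0 to 3.84 CPM in mESC, with Mog at 0 in NPC.

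The neural progenitor list of 20 genes summed to 180.7 to 411 CPM in NPC and 19.2 to 42.7 CPM in mESC. The pluripotency list of 18 genes summed to 71.0 to 144 CPM in mESC and 0 to 27.7 CPM in NPC. Feeder fibroblast genes summed to 11.5 to 27.7 CPM in mESC, chiefly on Fn1, with Col1a1 and Col1a2 at 0 counts there, and the endoderm and mesoderm list was at 0 in NPC. The NPC libraries thus carried progenitor and glial-lineage mRNAs, with the neuronal markers above, Gfap and Mog at or near 0, and the 8 are therefore called by their gene names below. Progenitors also express genes of the glial lists, and Ptprz1 stands in both the progenitor and the oligodendrocyte list.

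**Figure D2:**
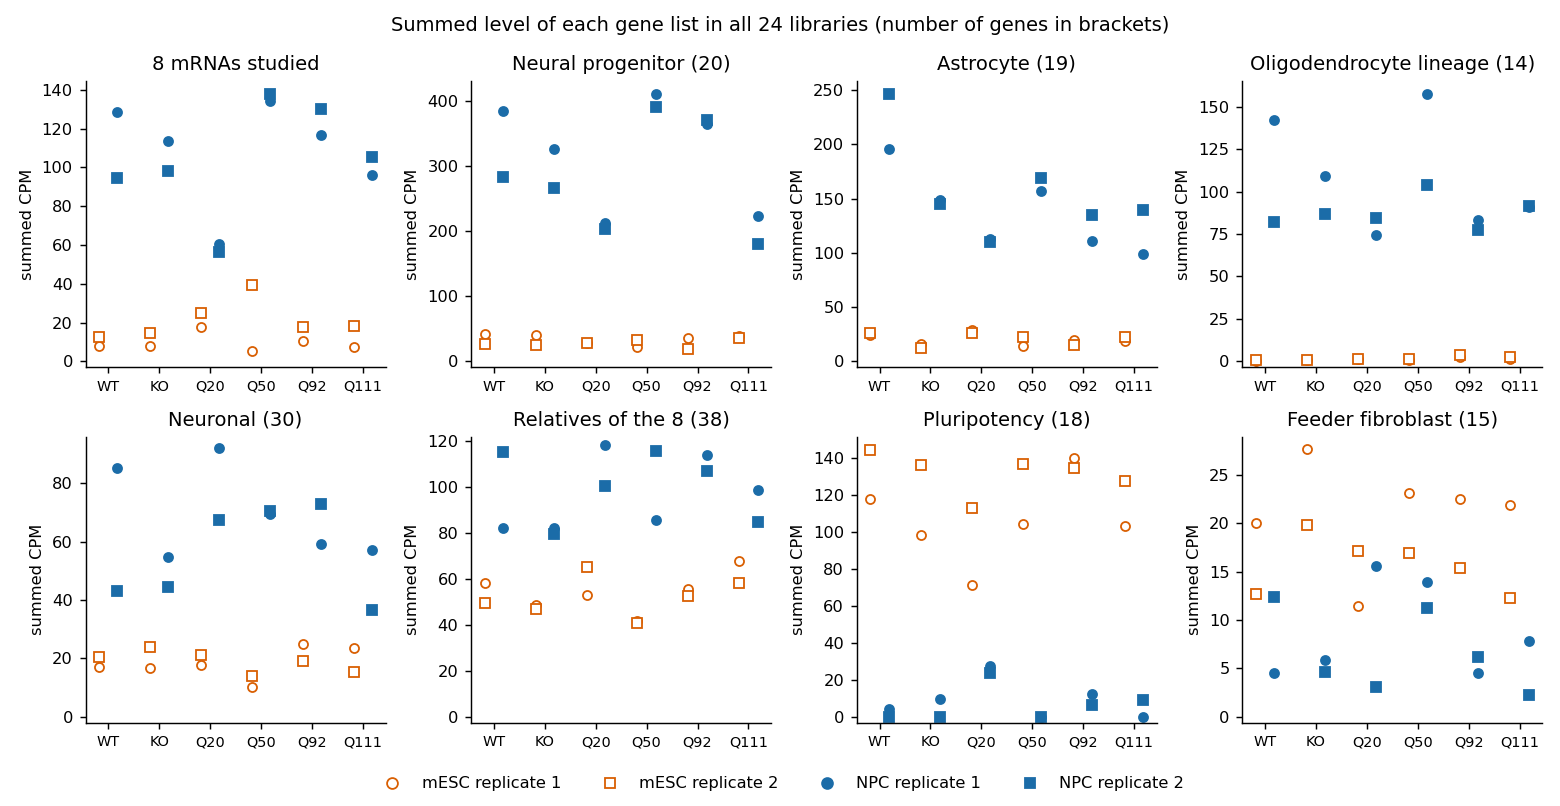
Summed level (vertical axis, TMM-scaled CPM) of the 8 mRNAs and of 7 gene lists in each library, by genotype (horizontal axis), with colours and shapes by cell type and replicate. The 8 mRNAs and the progenitor, astrocyte, oligodendrocyte and neuronal lists lie higher in NPC, and the 2 Q20 NPC libraries have the highest pluripotency sums among NPC, 27.7 and 23.5 CPM.

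Close relatives of the 8 were present in both cell types. A list of 38 genes of the same families (microtubule-associated proteins, spondins, RFX factors, tribbles, pentraxins, kinesins, Homers, semaphorins and plexins) summed to 79.6 to 117.9 CPM in NPC and 40.9 to 67.9 CPM in mESC. Kif1b and Kif5b, transport kinesins, had 95 and 49 counts in NPC and 71 and 134 in mESC, where libraries are deeper. Rfx7 had 50 and 79, Map4 had 29 and 70, and Map1b, a microtubule-associated protein of growing axons, had 49 and 154. As a level, Kif1b was higher in NPC, at 15.25 ± 4.73 CPM (SD, n = 12) against 3.96 ± 1.27 CPM in mESC. Kif5b was close in the 2 cell types, at 7.83 CPM in NPC and 8.08 CPM in mESC. Sema6d had 34 counts in NPC and 0 in mESC, and Plxna2 (30 and 4) and Sema3a (16 and 1) also leaned to NPC. The nearest relatives Homer1, Trib1 and Kif21a had 15, 23 and 12 NPC counts, and Nptx2 and Spon2 had none. None of the 38 passed the filter on low counts in NPC, and edgeR called 0 of the 4 tested between mESC genotypes, where 62 of 1766 genes had an unadjusted p under 0.05 and DESeq2 called 9 genes in all.

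Differences between the 6 genotypes were tested with edgeR's quasi-likelihood method over all genes that passed the filter on low counts (441 in NPC, 1766 in mESC), and Benjamini-Hochberg adjustment. In NPC 5 of the 8 mRNAs passed: Map2, Trib2, Nptx1, Kif21b and Homer3. Spon1, Rfx4 and Sema6a did not pass, and in mESC Homer3 alone passed. In NPC each of the 5, Kif21b included, passed only through libraries of some of the lines. A difference between lines was thus favoured in advance, so the counts of called genes below say little about the set. The test for any difference between the 6 NPC genotypes called 1 of the 5, Kif21b, where it called 37.2% of all genes tested. Kif21b had an adjusted p of 0.00721 in edgeR, and Trib2 (0.0545), Nptx1 (0.0616), Homer3 (0.0755) and Map2 (0.153) missed the threshold of 0.05. Homer3 passed without either WT library, either KO library or either Q50 library (edgeR adjusted p from 0.0104 to 0.0276), Nptx1 without WT replicate 2 or either KO library (0.0203 to 0.0399), and Trib2 without Q50 replicate 2 (0.0401). In mESC, Homer3 was not called (edgeR adjusted p = 1.00, unadjusted p = 0.744), where 0.0566% of genes were.

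Kif21b was low in both lines with the longest repeats. Its levels in replicates 1 and 2 were 44.9 and 22.6 CPM in WT NPC, 39.1 and 16.4 in KO, 19.1 and 14.1 in Q20, and 43.9 and 45.0 in Q50. They were 7.59 and 6.19 CPM in Q92 and 5.20 and 6.86 in Q111, from 2 to 5 counts each. All 4 Q92 and Q111 libraries thus lay below the other 8, a grouping chosen after the values were seen, and 4.54% of the 441 genes did the same. Against WT, the difference on the log2 scale was -1.99 ± 0.54 (SE) in Q92 and -2.34 ± 0.62 in Q111. Kif21b passed in both comparisons, with an edgeR adjusted p of 0.0204 in Q92, where 18.8% of genes were called and 10.2% were called lower, and of 0.0212 in Q111, where 10.9% were called and 5.9% lower. Kif21b was lower in 2 of 2 libraries of each line than in both WT libraries. It had passed the filter on low counts only through WT, KO, Q20 and Q50 libraries. A lower level in Q92 and Q111 was thus favoured in advance, and the 2 calls are given as a description.

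The size of the Kif21b difference rests in part on WT replicate 1, the highest WT library. Without it the differences were -1.72 in Q92 (edgeR adjusted p = 0.103) and -1.74 in Q111 (0.256). The calls also missed the threshold without either library of the line itself, at -2.22 and -1.96 in Q92 (edgeR adjusted p = 0.100 without replicate 1 and 0.131 without replicate 2) and at -2.29 and -2.47 in Q111 (0.178 and 0.170), where the remaining library is assumed to vary as the other groups do. Over the 17 alternatives that gave one, the adjusted p ran from 0.000687 to 0.131 in Q92 and from 0.00336 to 0.256 in Q111. The test over all 6 genotypes kept its call for Kif21b under all 18 alternatives, with adjusted p from 0.000346 to 0.0375. WT and KO replicates differed in the same sense as the lines did, since replicate 2 had less Kif21b than replicate 1 in both groups, with more Homer3 (18.5 against 4.49 CPM in WT, 16.4 against 3.91 in KO) and more Nptx1 (10.3 against 4.49 and 14.0 against 3.91). The part of that axis in the result was not tested. The comparisons of KO, Q50, Q92 and Q111 share the 2 WT libraries.

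Loss of Htt and the shorter expansion gave no called difference among the 5. In KO against WT, edgeR called 0 of them and 1.36% of all genes, and the differences on the log2 scale were -0.18 ± 0.45 (SE) for Kif21b, -0.17 ± 0.47 for Map2, -0.06 ± 0.89 for Homer3, 0.37 ± 0.78 for Nptx1 and 0.71 ± 0.58 for Trib2. Among all genes 51 had an unadjusted p under 0.05 in this comparison, and DESeq2 called 18. The SEs leave room for changes of about the size seen in the lines with long repeats for Homer3 and Nptx1. In Q50 against WT, 0 of the 5 and 6.58% of all genes were called, with 0.32 ± 0.43 for Kif21b and 0.90 ± 0.58 for Trib2, while 70 genes had an unadjusted p under 0.05 and DESeq2 called 28.

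**Figure D3:**
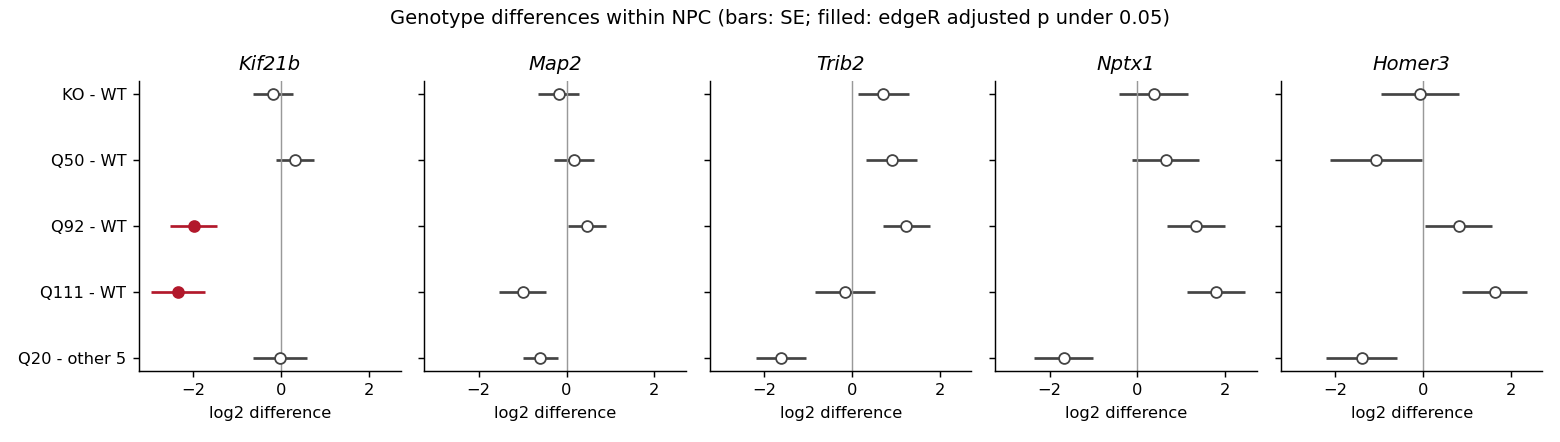
Difference on the log2 scale (horizontal axis) of the 5 tested mRNAs within NPC, for KO, Q50, Q92 and Q111 against WT and for Q20 against the other 5 genotypes, with bars of 1 SE and filled points where the edgeR adjusted p was under 0.05. Kif21b in Q92 (-1.99) and Q111 (-2.34) are the filled points.

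Map2 and Trib2 were called in none of these comparisons. Map2 levels were 40.4 and 16.4 CPM in WT, 29.3 and 18.7 in KO, 17.3 and 14.1 in Q20, 34.7 and 33.8 in Q50, 24.3 and 41.8 in Q92, with 13.0 and 13.7 in Q111. Q111 had the lowest pair and Q20 the next, while the 2 libraries of WT, KO and Q92 each lay far apart. The Map2 difference of Q111 from WT was -0.999 ± 0.54 on the log2 scale (SE, edgeR adjusted p = 0.267). Trib2 levels were 12.0 and 8.22 CPM in WT, 15.6 and 16.4 in KO, 3.47 and 4.70 in Q20, 27.7 and 11.3 in Q50, 21.3 and 18.6 in Q92, with 5.20 and 11.4 in Q111. Both Q20 libraries lay below the other 10, as they did for Rfx4, and 4.31% of the 441 genes tested and 2.49% of 642 protein-coding genes with enough NPC counts showed this. Its difference in Q92 against WT was 1.23 ± 0.53 (SE, edgeR adjusted p = 0.118).

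Nptx1 and Homer3, whose proteins act at glutamatergic synapses, rose with repeat length across the knock-in NPC in the main test, a call that several alternatives ended. Each had passed the filter on low counts only through Q92 and Q111 libraries, where it was high. A rising slope was thus favoured in advance, and the 2 calls are given as a description. Nptx1 levels were 1.73 and 4.70 CPM in Q20, 11.6 and 11.3 in Q50, 13.7 and 15.5 in Q92, with 15.6 and 29.7 in Q111. Homer3 levels were 5.20 and 3.13 CPM in Q20, 0 and 11.3 in Q50, 15.2 and 15.5 in Q92, with 39.0 and 22.9 in Q111. The Q20 libraries were lowest and the Q111 libraries highest for Nptx1, while for Homer3 a Q50 library was lowest. WT NPC had 4.49 and 10.3 CPM of Nptx1 and 4.49 and 18.5 of Homer3, and KO had 3.91 and 14.0 of Nptx1 and 3.91 and 16.4 of Homer3. Replicate 2 of WT and KO thus had more Homer3 than either Q92 library. The slope per 10 repeats over the 8 knock-in libraries was 0.26 ± 0.07 on the log2 scale (SE) for Nptx1 and 0.34 ± 0.09 for Homer3. Both were called, with edgeR adjusted p of 0.0406 and 0.0469, where 6.45% of the 403 genes tested were called and 2.73% were called rising.

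These slope calls were close to the threshold, and 6 of 8 libraries for Nptx1 and 5 of 8 for Homer3 were each needed for it. The slope of Nptx1 was 0.21 without Q20 replicate 1 (edgeR adjusted p = 0.204), 0.28 without Q20 replicate 2 (0.125), 0.27 and 0.26 without Q92 replicates 1 and 2 (0.0627 and 0.0795), and 0.29 and 0.25 without Q111 replicates 1 and 2 (0.0525 and 0.185). For Homer3 it was 0.40 and 0.35 without Q20 replicates 1 and 2 (edgeR adjusted p = 0.0700 and 0.112), 0.35 and 0.34 without Q92 replicates 1 and 2 (0.0625 and 0.0762), and 0.29 without Q111 replicate 1 (0.200). Without the Q20 group the slopes were 0.19 for Nptx1 and 0.44 for Homer3 (edgeR adjusted p = 0.293 and 0.136). Library totals in place of TMM gave an edgeR adjusted p of 0.0658 for each. With no filter on low counts the edgeR adjusted p was 0.456 for Nptx1 and 0.0724 for Homer3, and DESeq2 gave 0.0897 for Nptx1. With the replicate number as a block it was 0.0808 for Nptx1 and 0.0898 for Homer3 in edgeR.

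Against WT, neither was called. The difference of Nptx1 was 1.33 ± 0.66 on the log2 scale in Q92 (SE, edgeR adjusted p = 0.154) and 1.79 ± 0.66 in Q111 (0.0937). That of Homer3 was 0.81 ± 0.76 in Q92 (edgeR adjusted p = 0.458) and 1.63 ± 0.73 in Q111 (0.175). Without WT replicate 2, the higher of the WT libraries, the Homer3 difference in Q111 was 2.83. Homer3 had passed the filter on low counts only through Q92 and Q111 libraries, so a rise over WT was favoured in advance. The slope of Kif21b per 10 repeats was -0.21 ± 0.09 (SE) and was not called (edgeR adjusted p = 0.243), with Q20 below Q50. It passed without the Q20 group at -0.47 (edgeR adjusted p = 0.0166). There Kif21b met the filter on low counts only through Q50, where it was high. A falling slope was thus favoured in advance, and that call is a description. Map2 (0.03 ± 0.07) and Trib2 (0.12 ± 0.10) had slopes near 0.

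**Figure D4:**
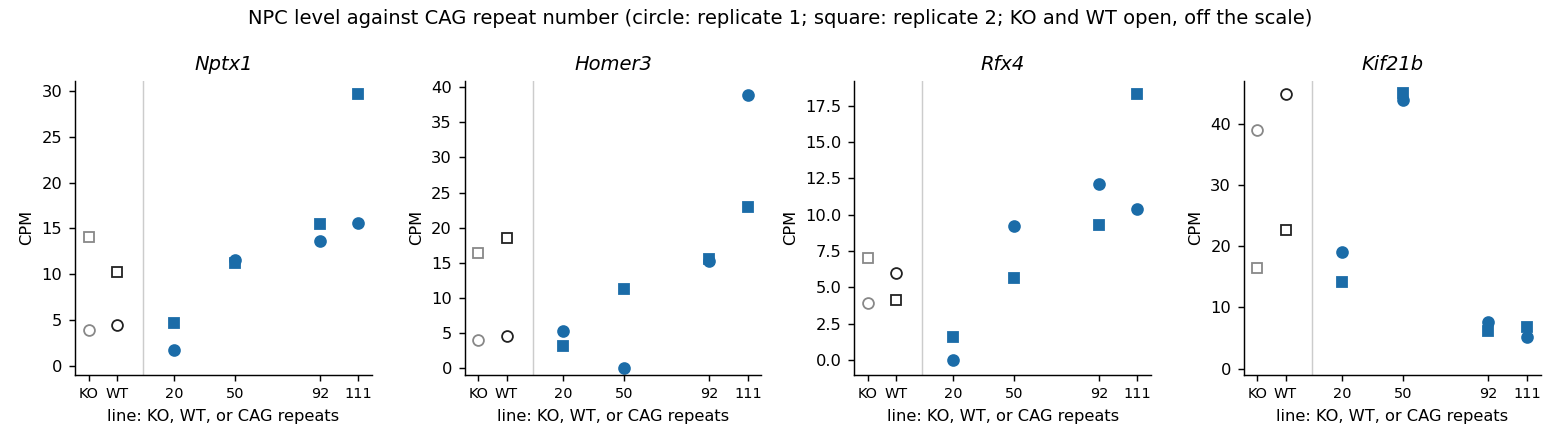
NPC level (vertical axis, TMM-scaled CPM) of Nptx1, Homer3, Rfx4 and Kif21b in each library against the number of CAG repeats of the knock-in line (horizontal axis), with WT and KO as open points left of the scale, circles for replicate 1 and squares for replicate 2. The Q111 libraries reach 29.7 CPM for Nptx1 and 39.0 CPM for Homer3, and Kif21b falls from 43.9 and 45.0 CPM in Q50 to at most 7.59 CPM in Q92 and Q111.

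Of the 3 mRNAs too sparse to be tested in NPC, Rfx4 had its highest levels in Q92 and Q111. Its levels were 5.98 and 4.11 CPM in WT, 3.91 and 7.02 in KO, 0 and 1.57 in Q20, 9.25 and 5.63 in Q50, 12.1 and 9.28 in Q92, with 10.4 and 18.3 in Q111. All 4 Q92 and Q111 libraries lay above the other 8, though narrowly (9.28 CPM in the lowest of the 4 and 9.25 in the highest of the 8), on 4 to 8 counts each. Of 642 protein-coding genes with enough NPC counts, 0.312% did the same, a share that includes Rfx4 itself. This grouping too was chosen after the values were seen, so the share is a description. With no filter on low counts, its slope was 0.30 ± 0.10 per 10 repeats (SE) and was not called (edgeR adjusted p = 0.376). Spon1 had 0 and 0 counts in Q111 NPC, which allows up to 3.65 CPM over both libraries, against 8.97 and 6.16 CPM in WT and 12.1 and 6.19 in Q92. Q50 NPC had 2.31 and 5.63 CPM of Spon1, from 3 counts, so Q111 cannot be told apart from Q50 at this depth. The same unfiltered test gave Spon1 an adjusted p of 0.618 in edgeR for Q111 against WT. Sema6a ran from 2.29 CPM in Q111 replicate 2 to 17.0 CPM in Q92 replicate 2, with no genotype whose libraries lay apart from the rest. In mESC the unfiltered test over genotypes gave Sema6a an unadjusted p of 6.03e-05 in edgeR and an adjusted p of 0.0964.

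Q20 NPC had the lowest summed level of the 8. The sum was 60.7 and 56.4 CPM in the 2 Q20 libraries and 94.5 to 137.9 CPM in the other 10, so the groups did not overlap. Scaled to 1e+06 counts on protein-coding genes it was 1244 and 1202 in Q20 and 1777 to 2913 elsewhere. Set against the mean of the other 5 genotypes, the log2 differences were -1.68 ± 0.68 (SE) for Nptx1, -1.63 ± 0.57 for Trib2, -1.40 ± 0.81 for Homer3, -0.60 ± 0.40 for Map2 and -0.02 ± 0.62 for Kif21b. None of the 5 passed, where 18.1% of genes did, and Trib2 came nearest (edgeR adjusted p = 0.0581). Trib2 passed without any 1 of WT replicate 2, KO replicate 1, KO replicate 2, Q50 replicate 2 and Q111 replicate 1 (edgeR adjusted p from 0.0336 to 0.0489), and Nptx1 without KO replicate 1 (0.0387). The median of the 5 was -1.40 against 0.10 over all genes tested. Nptx1, Homer3 and Trib2 had passed the filter on low counts only through lines other than Q20. A low median in Q20 was thus favoured in advance, and it is a description. In this comparison 133 genes had an unadjusted p under 0.05 and DESeq2 called 48.

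A few other mRNAs of neural cells were called lower in Q20 NPC: 1 of 9 progenitor genes tested, 2 of 3 oligodendrocyte lineage genes, 0 of 3 astrocyte genes and 0 of 1 neuronal genes. Of all 441 genes tested, 27 were called lower and 53 higher, which is 18.1% in either direction. Tnc, a matrix protein of progenitors and glia, fell by 3.16 ± 0.42 on the log2 scale (SE, edgeR adjusted p = 3.09e-05). The oligodendrocyte lineage factors Olig2 and Olig1 fell by 2.70 ± 0.72 and 1.36 ± 0.41 (edgeR adjusted p = 0.0149 and 0.0295). The 8 progenitor genes not called ranged from -1.28 for Egfr to 0.47 for Sox11. The sums of the lists overlapped with those of the other lines, at 213 and 204 CPM against 180.7 to 411 CPM for the progenitor list and at 112.7 and 109.7 CPM against 98.7 to 246.5 CPM for the astrocyte list. The neuronal list was 91.9 and 67.4 CPM in Q20 and 36.6 to 85.2 CPM elsewhere. The pluripotency list was higher in both Q20 libraries, at 27.7 and 23.5 CPM against 0 to 12.1 CPM, and its part in the lower level of the 8 was not tested.

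In the other comparisons a few genes of the lists were called. Over the 6 NPC genotypes, edgeR called 37.2% of all genes, and among the lists 3 of the 9 progenitor genes tested (Tnc, Vim and Fabp7, with adjusted p of 2.99e-05, 0.0186 and 0.0444), 2 of 3 astrocyte genes (Slc1a3 and Nfib, 0.0326 and 0.0428) and 1 of 3 oligodendrocyte lineage genes (Olig1, 0.0282). The only neuronal gene tested, Ank2, was not called (edgeR adjusted p = 0.0612). Vim, an intermediate filament of progenitors and glia, was above WT by 1.43 on the log2 scale in Q50 and by 1.34 in Q92 (edgeR adjusted p = 0.0419 and 0.0262). It was the only call among the 9 progenitor genes in Q50, where 6.58% of all genes were called. Sox11, a factor of early neuronal commitment, was higher by 1.98 in Q92 (edgeR adjusted p = 0.0299), which makes 2 of 9 there beside 18.8% of all genes. Tnc fell by 1.73 in Q111 (edgeR adjusted p = 0.0101), 1 of 9 beside 10.9%.

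Among themselves the 8 did not vary as a block across the 12 NPC libraries. Pearson correlations of log2 CPM ranged from 0.90 between Rfx4 and Nptx1 to -0.70 between Kif21b and Homer3. Map2 correlated with Trib2 at 0.65 and Nptx1 with Homer3 at 0.64, whereas Spon1 and Nptx1 gave -0.64. These are descriptions over 12 libraries, whose counts are low and which share depth and line. Kif21b and Homer3 were also opposed between the 2 replicates of WT and of KO. WT and KO replicate 1 had 44.9 and 39.1 CPM of Kif21b with 4.49 and 3.91 CPM of Homer3, and their replicate 2 had 22.6 and 16.4 CPM of Kif21b with 18.5 and 16.4 CPM of Homer3.

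**Figure D5:**
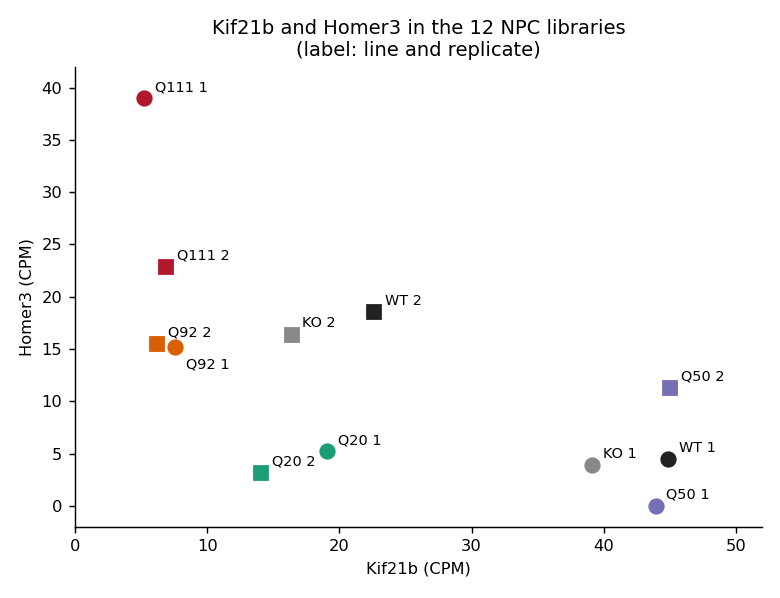
Homer3 (vertical axis) against Kif21b (horizontal axis), both in TMM-scaled CPM, in the 12 NPC libraries, coloured by line and marked by replicate. The Q92 and Q111 libraries lie at the left, below 8 CPM of Kif21b, and WT and KO replicate 2 lie to the left of and above replicate 1 of the same lines.

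As a share of scaled reads, Homer3 in mESC was higher in replicate 2 than in replicate 1 of every genotype. Replicate 2 had the smaller library total in every genotype but Q20. The Homer3 counts themselves were close in WT (13 and 12), KO (12 and 13) and Q92 (14 and 13). They rose in Q20 (18 and 28), Q50 (7 and 26) and Q111 (7 and 21). Its levels were 7.21 and 11.7 CPM in WT, 6.26 and 13.6 in KO, 12.9 and 18.4 in Q20, 3.17 and 36.6 in Q50, 9.25 and 16.6 in Q92, with 3.93 and 16.1 in Q111. This held in 6 of 6 genotypes, as in 10.7% of the 1766 genes tested in mESC. No genotype stood apart from that spread. With the replicate number as a block, edgeR called 29 genes between mESC genotypes in place of 1, and Homer3 was not called (adjusted p = 0.899).

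The genes whose level was most like the sum of the 8 included several of the progenitor and glial lists. Over the 12 NPC libraries and 246 protein-coding genes, Tnc correlated with it at 0.88, Mtss1l at 0.84, Olig2 at 0.84, Fabp7, a fatty acid binding protein of radial glia, at 0.83 and Cdkn1a, a cell cycle inhibitor, at 0.76. Over all 24 libraries and 658 genes, Nfib, Vim, Fabp7, Ckb and Sall3 led, at 0.93, 0.93, 0.93, 0.93 and 0.92. The 24 points share the gap between the cell types, the 12 points share the low Q20 libraries, and all share depth within a library.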

How the data were processed

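Small RNA libraries of 24 samples, 12 mESC and 12 NPC, were analysed from whole-number counts per gene that the authors deposited, not normalized. STAR, HTSeq, CASAVA 1.8 and the build GRCm38.p6 are named in the submitters' processing notes; adapter trimming and strand setting are not given in the sources used here. The Q89 columns were assigned to the Q92 samples by the repeat number in the culture protocol. Of 55335 identifiers 55154 matched GENCODE M21, and the rest held 57 of 25027120 counts.

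Tests used edgeR 4.0.16 in R 4.3.3 (glmQLFit, glmQLFTest) with TMM scaling and filterByExpr (minimum count 10, minimum total 15), with p-values adjusted over all genes tested and called under 0.05. NPC comparisons used all 12 NPC libraries, and the slope used 8 knock-in libraries at 20, 50, 92 and 111 repeats. The scripts were tested on simulated counts. Correlations used log2 CPM with a prior count of 2. Alternatives were DESeq2 1.42.0, its size factors, library totals, no filter, protein-coding genes alone, a replicate block, the Q20 group left out of the slope, 89 repeats for the Q92 line, and each library left out in turn, the last chosen after seeing the data for the levels.

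The 8 mRNAs and the gene lists were chosen with earlier results of these data known. Named besides them were the 5 protein-coding genes most correlated with their sum over 12 and over 24 libraries, and from each list the genes called in a test or the 2 with most NPC counts. Markers and relatives with other counts were named after their values were seen. A gene that this rule names is not reported here.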

Additional observations from a re-analysis of the deposited data

How the results depend on the processing

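The called differences and slopes of Kif21b, Nptx1 and Homer3 kept their direction under all alternatives that gave a value. With protein-coding genes alone, edgeR called 37 genes between NPC genotypes (164 over all genes), 0 between mESC genotypes (1; 30 with an unadjusted p under 0.05), 1 in KO against WT (6), 27 in Q20 against the other 5 (80), 0 in Q50 (29; 17 unadjusted), 15 in Q92 (83), 6 in Q111 (48) and 7 for the slope (26). With no filter it called 6 in mESC, 0 in KO (342 unadjusted), 0 in Q50 (277 unadjusted), 27 in Q92, 27 in Q111 and 50 for the slope. Library totals gave 3 in mESC and 1 in KO, and DESeq2 size factors gave 10 in KO and 19 in Q50. DESeq2 called 9 in mESC, 18 in KO, 48 in Q20 and 11 for the slope, and 28 in Q50. The slope called 15 genes without the Q20 group.

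Leaving out each library in turn gave 100 to 227 genes between NPC genotypes, lowest without Q92 replicate 1, and 1 to 5 in mESC, highest without Q50 replicate 2. It gave 0 to 22 in KO (0 without KO replicate 1, with 54 at an unadjusted p under 0.05, and 22 without WT replicate 2), 21 to 111 in Q20 (lowest without Q20 replicate 1) and 6 to 37 in Q50 (lowest without Q50 replicate 1). It gave 13 to 103 in Q92 (lowest without Q92 replicate 2), 14 to 98 in Q111 (without Q111 replicate 1 and WT replicate 2) and 6 to 34 for the slope (lowest without Q20 replicate 1). Of the 8 mRNAs, 4 to 5 separated the cell types.

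The split of calls into higher and lower moved with the scaling. It was 38 and 45 in Q92 with TMM, 46 and 12 with library totals and 22 and 58 with DESeq2 size factors. It was 23 and 6, 7 and 18, and 11 and 8 in Q50, and 22 and 26 against 13 and 33 with library totals in Q111. In KO it was 1 and 5 against 1 and 0 with library totals. The median log2 difference of all genes moved from 0.24 to 0.46 in Q92, 0.04 to -0.21 in Q50 and 0.08 to 0.28 in KO with library totals, and to 0.08 in Q92 with size factors. The cause was not tested.

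Same-numbered replicates deviated together at -0.0785 to 0.392 in NPC, over 0.1 in 4 of 15 pairs of groups, and in 10 of 15 in mESC (up to 0.502). The labels tie no number to a shared batch, and not every pair exceeded 0.1, so they were not treated as paired, although most mESC pairs did. A replicate block gave 29 calls in mESC (1 without it), with Homer3 still not called (adjusted p = 0.899), 9 for the slope and 8 in KO. It ended the slope calls of Nptx1 and Homer3 (adjusted p = 0.0808 and 0.0898). Trib2 passed in NPC genotypes with library totals (0.0369) and in Q20 with size factors (0.0473). DESeq2 gave Kif21b no adjusted p in Q92 or Q111. The median library had fewer than 10 counts for most of the 8, which limits all of these.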
